A study of Mus musculus with 4 samples.

Results

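The genes described here encode ubiquitin conjugating (E2) enzymes and ubiquitin-specific deubiquitinases, taken as every gene on the array whose symbol began with Ube2 or with Usp and a digit. This rule found 93 of the 24185 named genes, 37 Ube2 genes and 56 Usp genes, on 157 probes and 175 spots. Of these, 84 genes (33 Ube2 and 51 Usp) had a probe well above background on at least 2 arrays and were tested among 19696 genes. All 84 had a tested probe well above background on all 4 arrays. The other 9 (Ube2cbp, Ube2d2b, Ube2t, Ube2u, Usp17lb, Usp17le, Usp26, Usp49 and Usp9y) were not tested, and their highest raw signal on any array lay between 3.8 for Ube2t and 40.0 for Usp49. The names are not exact labels of function, since Ube2cbp is a binding protein, Usp6nl is a Rab GTPase-activating protein and some Usp proteins lack deubiquitinating activity.

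Ubiquitin is activated by an E1 enzyme, passed to an E2 and attached to a substrate, usually with the help of an E3 ligase, and deubiquitinases remove it again. The E2 helps to set the kind of chain that is built, and related E2s carry ubiquitin-like proteins such as SUMO and NEDD8. In neurons this system sets the turnover of receptors, scaffolds and vesicle proteins at synapses. CPEB2 binds cytoplasmic polyadenylation elements (CPEs), short U-rich stretches of mRNA through which translation is controlled.

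RNA immunoprecipitation with microarray (RIP-microarray) measured the RNA recovered from corticohippocampal lysate of male C57BL/6 mice, 8 weeks old, on beads carrying either CPEB2 IgG or control IgG for 3 h. There were 2 independent experiments, in each of which the lysate was divided between the antibodies, giving 4 one-color arrays in 2 pairs, CPEB2 IgG 1 and 2 and control IgG 1 and 2. No animal carried a transgene or mutation by the labels, the number of mice behind each lysate is not given in the sources used here, and the CPEB2 IgG samples carry 1 text field that names CPEB3 IgG, against CPEB2 in their titles and protocol. RIP compares the RNA recovered with each antibody, so that a gene below control IgG was recovered less with CPEB2 IgG, whatever its level in the tissue.

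On each array 68.4% to 74.1% of spots were well above background and none was saturated. The CPEB2 IgG arrays had a median signal of 63.6 and 54.9 and the control arrays 71.1 and 72.4. All 4 arrays lay on 1 slide, and each antibody had its own array positions, so position and antibody cannot be told apart. All markers of neurons (4 of 4), astrocytes (3 of 3), oligodendrocytes (3 of 3) and microglia (3 of 3) were above background, as were 4 of 4 genes of cortex and hippocampus, while of 3 cerebellar genes Gabra6 and Cbln3 were not above background on any array and Pcp2 was on all 4, at 246 and 204 raw units on the CPEB2 IgG arrays and 360 and 369 on the control arrays. The summed raw signal of the astrocyte markers was 2870 and 2399 with CPEB2 IgG against 15616 and 12244 with control IgG, with Aldh1l1 at a log2 fold change of -3.77, Gfap at -0.90 and Aqp4 at 0.59, and that of the microglial markers was 5402 and 3856 against 11264 and 9467, with Aif1 at -2.64, Csf1r at -1.35 and Cx3cr1 at -0.16. The sum was 54664 and 53689 against 72249 and 81607 for the neuronal markers, 50323 and 51951 against 49206 and 38560 for the oligodendrocyte markers and 7661 and 15360 against 5770 and 6156 for the genes of cortex and hippocampus. The part of these differences in the values of the ubiquitin genes was not tested.

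Usp21, Usp7, Usp1 and Ube2d1 had the largest enrichment with CPEB2 IgG, and Usp5, Usp20, Usp19 and Usp47 the largest depletion, while Ube2o was the most depleted Ube2 gene. The plot of ranked genes shows both directions in both families. The last 30 bases of the 60-base probes of 3 enriched and 3 depleted genes, chosen to include the extremes of each family, are shown because every value below is the signal of such a stretch. They are copied from the array files and read 5′ to 3′ in the direction of the transcript, and capitals mark AATAAA, the letters of the usual polyadenylation signal.
Usp21 (mm9 chr1:173212090-173212119, minus strand): gcaatctcacttttttgtgAATAAAtttat
Usp7 (mm9 chr16:8689715-8689744, minus strand): tttttgctggaaaatgttgtatgttgaata
Ube2d1 (mm9 chr10:70718522-70718551, minus strand): agagtactgtaaaatctatgtcttttccag
Usp5 (mm9 chr6:124765054-124765083, minus strand): tggaaaaatgccaaaatacatgatgtgaat
Usp20 (mm9 chr2:30878131-30878160, plus strand): tgtcacAATAAAtacttgttcctctcctgc
Ube2o (mm9 chr11:116399379-116399408, minus strand): ctgccggtgagcacattacagctcttgtcg
The letters AATAAA stood in the most enriched probe, Usp21, and in a depleted one, Usp20. Among probes well above background on at least 2 arrays, they were present in 15 of 138 probes of Ube2 and Usp genes (10.9%) and in 14.0% of all 26707 named probes. No annotation of mm9 was used here, so whether a probe lies in coding sequence or a UTR is not stated.

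**Figure D1:**
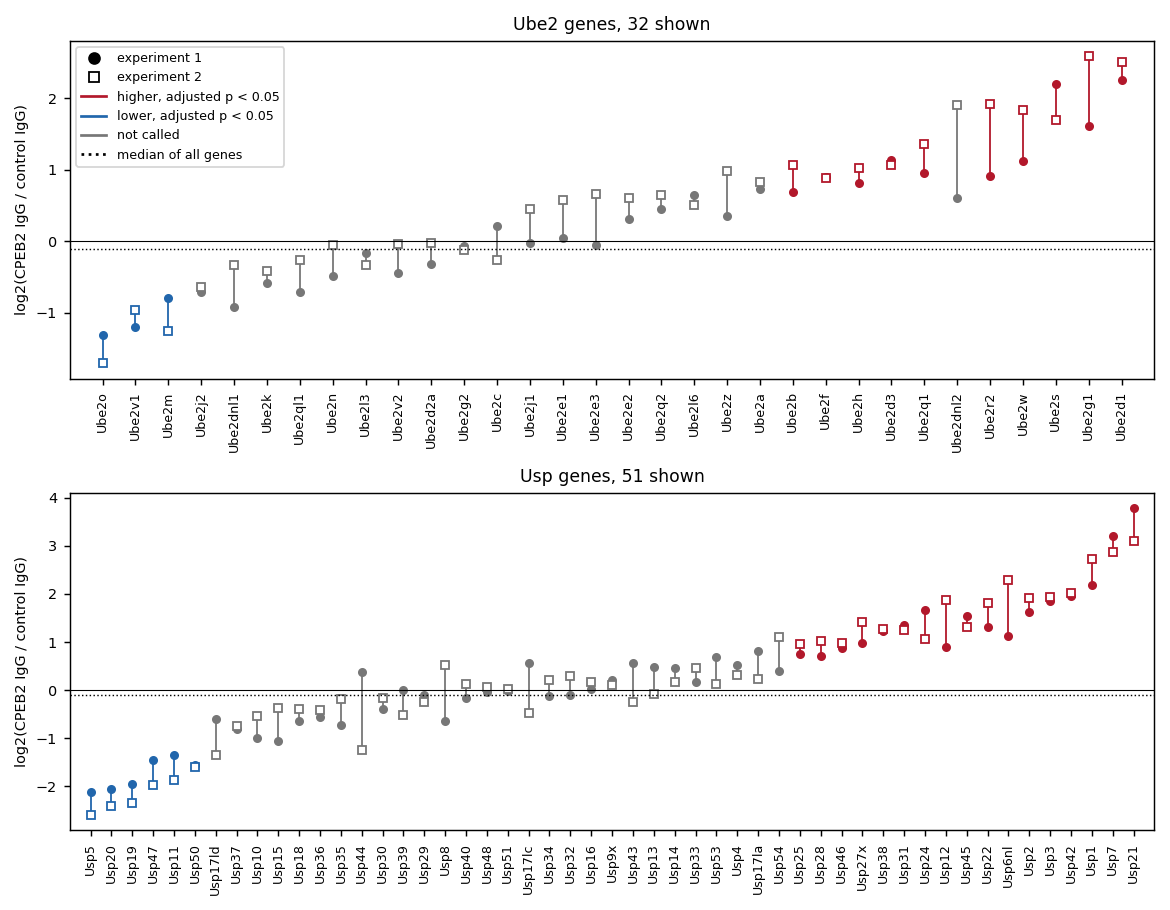
Log2 ratio of CPEB2 IgG to control IgG for 32 of the 33 tested Ube2 genes (top) and the 51 tested Usp genes (bottom), in order of their mean. Filled circles are experiment 1 and open squares experiment 2, colors give the limma call, and the dotted line is the median of all genes tested, -0.11. Usp genes span -2.36 to 3.45 and Ube2 genes -1.52 to 2.38.

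Whether CPEB2 IgG recovered the transcripts of these enzymes differently from control IgG was tested with limma, with the experiment as a block and Benjamini-Hochberg adjustment over all 19696 genes at a threshold of 0.05. Of the 33 Ube2 genes, 10 were higher (30.3%), 3 were lower (9.09%) and 20 were not called. Of the 51 Usp genes, 17 were higher (33.3%), 6 were lower (11.8%) and 28 were not called. Over all genes tested, 21.2% were higher and 20.4% lower, so that calls in both families were tilted toward CPEB2 IgG, with 27 higher against 9 lower, a tilt that was near the share of all genes once probe GC content was centred, as given below. The log2 fold change had the same sign in both experiments in 70 of the 84 genes. It was above 0 in both experiments in 18 Ube2 and 25 Usp genes, against 36.5% of all genes, and below 0 in both in 12 and 15, against 43.2%. The raw signals of both CPEB2 IgG arrays were above those of both control arrays in 38 of the 84 genes, against 32.3% of all genes, and below them in 27, against 40.4%. Without the block, 10 Ube2 genes were higher and 4 lower and 17 Usp genes higher and 7 lower, against 21.6% and 20.3% of all genes. With no filter on dim probes, 2 of 37 Ube2 genes and 9 of 56 Usp genes were higher, against 9.37% of all genes. Lower calls in that setting were 1 and 5, against 7.60%.

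The median log2 fold change was 0.46 over the Ube2 genes (0.31 and 0.60 in the 2 experiments, SD 0.20, n = 2) and 0.15 over the Usp genes (0.37 and 0.17, SD 0.14, n = 2), against -0.11 over all genes tested (-0.01 and -0.20). The deubiquitinases were thus 0.31 below the E2 enzymes in the median, a difference of -0.31 that was smaller than its SD of 0.35 and changed sign between experiments (0.06 and -0.43). The difference was -0.16 with no filter on dim probes and -0.08 where a raw signal above 1000 was required. On the probe nearest each gene's median it was -0.40. With 2 experiments and genes that are not replicates, no test of this difference was made. The spread was wider among the Usp genes, which held both the highest and the lowest value of the 84.

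Probe base composition differed between these genes and the rest of the array and moved with the fold change. The tested probe had a median GC content of 36.7% in both families and 41.7% over all genes. Where the probe held at most 40% GC, 7 of 22 Ube2 genes were higher (31.8%) and 1 was lower, and 14 of 35 Usp genes were higher (40.0%) and 1 was lower, against 32.3% higher and 12.0% lower among all 9003 such genes. Above 40% GC, 3 of 11 Ube2 genes were higher and 2 lower, and 3 of 16 Usp genes were higher (18.8%) and 5 lower (31.2%), against 11.9% and 27.5% of all 10693 such genes. Centring fold changes within bins of probe GC content changed the split from 27 higher and 9 lower to 21 higher and 16 lower of the 84 genes, near the shares of 22.5% and 20.6% of all genes in the same setting. The median log2 fold changes in that setting were 0.39 over the Ube2 genes and 0.15 over the Usp genes, against -0.01 over all genes. The part of base composition in the calls was not tested further.

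The study selected transcripts by a fold change of over 1.5 and a raw signal of over 1000 beside a CPE filter. These 2 thresholds, applied here to the mean fold change and to the brighter CPEB2 IgG array, since the methods do not state how arrays were combined, were passed by 12 Ube2 genes (36.4%) and 13 Usp genes (25.5%), against 16.4% of all genes tested. A raw signal above 1000 with CPEB2 IgG was reached by 27 of the 33 Ube2 genes but by 26 of the 51 Usp genes, which bears on how many could pass. In the other direction, with a raw signal above 1000 on a control IgG array, the same fold was passed by 4 Ube2 and 6 Usp genes, against 13.1% of all genes. Ube2d1, Usp3, Usp24, Usp27x and Usp6nl were called higher by limma but did not reach a signal of 1000 with CPEB2 IgG. Ube2a and Ube2z passed both thresholds without a limma call.

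The Ube2d enzymes (the UBCH5 type) and the related Ube2e enzymes are general partners of many RING ligases, and Ube2w, an E2 of another class, was counted with them. In this group 3 of 7 tested genes, Ube2d1, Ube2d3 and Ube2w, were higher and none was lower at the adjusted threshold, against 21.2% higher and 20.4% lower over all genes. The probes of all 7 held at most 40% GC, and among all such genes 32.3% were higher and 12.0% lower. Ube2d1 gave raw signals of 733 and 703 with CPEB2 IgG against 163 and 125 with control IgG, a log2 fold change of 2.38 ± 0.18 (SD, n = 2; 5.22-fold; limma adjusted p = 0.00542). Both CPEB2 IgG arrays were above both control arrays by a wide margin. Ube2d3 had 6199 and 6161 against 2983 and 3003, a log2 fold change of 1.10 ± 0.06 (limma adjusted p = 0.0209). Its groups did not overlap either, although the mean of its 2 probes was not called and the call was lost without either control array. Ube2w, which places ubiquitin on the amino terminus of its substrates, had 2733 and 5104 against 1329 and 1454, a log2 fold change of 1.48 ± 0.50 (limma adjusted p = 0.0165), and the CPEB2 IgG arrays lay apart from each other but above both controls, with the call lost without control IgG 1. The related Ube2d2a had 4971 and 5552 against 6585 and 5703, with a log2 fold change of -0.17 ± 0.22 that was not called and turned to 0.06 when arrays were centred on their median. This was its brightest probe, and its other probes were at 0.76 and 0.32, so that the mean of the 3 probes was 0.31. Under GC centring it was called lower, at -0.69 (limma adjusted p = 0.0495). The 3 Ube2e genes were not called, at 0.31 for Ube2e1 and Ube2e3 and 0.46 for Ube2e2.

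Ube2a and Ube2b are the RAD6-type E2s, which act on histones and in the DNA damage response. Ube2b gave raw signals of 15911 and 20800 with CPEB2 IgG against 10460 and 10136, a log2 fold change of 0.87 ± 0.26 (limma adjusted p = 0.0452). Ube2a had 2090 and 2664 against 1336 and 1523, 0.78 ± 0.07 (limma adjusted p = 0.0518). On these probes the groups of both genes were apart, and the genes lay on either side of the threshold. The second Ube2a probe was apart in the other direction, with 494 and 805 against 1360 and 1271 and a log2 fold change of -1.01, and the mean of its probes was -0.11, while the other Ube2b probes were at 1.06 and 0.82. Of 19 other limma settings, Ube2b lost its call in 7, among them those without CPEB2 IgG 2, control IgG 1 or control IgG 2, and Ube2a gained a call in 7, among them median centring, GC centring, normexp and the setting without CPEB2 IgG 1.

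The pair that serves the anaphase promoting complex, the cell cycle ligase, was split. Ube2s, which extends chains on its substrates, gave raw signals of 10537 and 11558 with CPEB2 IgG against 2431 and 3628 with control IgG, a log2 fold change of 1.95 ± 0.36 (3.86-fold; limma adjusted p = 0.00725). Ube2c, which starts those chains, had 118 and 80.8 against 108 and 98.9, a log2 fold change of -0.03 ± 0.34 whose sign differed between experiments. The groups of Ube2s were well apart and those of Ube2c overlapped. Of the 4 E2s of endoplasmic reticulum associated degradation, 1 was higher and none lower, against 21.2% and 20.4% of all genes. The higher gene was Ube2g1, with 631 and 1248 against 220 and 210 and a log2 fold change of 2.10 ± 0.70 (limma adjusted p = 0.00972). Its 2 CPEB2 IgG arrays stood apart from each other, and both were above the controls. The other members of this group, Ube2g2, Ube2j1 and Ube2j2, were between -0.67 and 0.21 on their brightest probes and were not called. Ube2j2, at -0.67, was called lower without the block (limma adjusted p = 0.0476), and the other probes of Ube2j1 were at -1.63 and -1.26.

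Of the E2 genes, 3 were called lower, at -1.52, -1.08 and -1.03, against 10 higher at 0.87 to 2.38, and under GC centring 7 were lower and 8 higher. Ube2o, a large E2 that can act as its own ligase, gave raw signals of 4909 and 3902 with CPEB2 IgG against 13000 and 12958 with control IgG, a log2 fold change of -1.52 ± 0.27 (2.86-fold lower; limma adjusted p = 0.0109). Ube2v1, a catalytically inactive E2 variant that pairs with Ube2n to build chains used in signaling, had 16624 and 17741 against 40318 and 35335, -1.08 ± 0.16 (limma adjusted p = 0.0229). The arrays of the 2 antibodies did not overlap for either gene. Its partner Ube2n had 4186 and 5798 against 6209 and 6119, -0.27 ± 0.30, and was not called, with its second probe at -0.68 and a lower call under GC centring at -0.80 (limma adjusted p = 0.0358). The second variant Ube2v2 was at -0.25 and was not called, and its other probes were at 0.90 and -0.96. The call of Ube2v1 was lost without either control array and under spike-in centring. That of Ube2o was kept in each of the 19 other limma settings, although its value was -0.88 under GC centring.

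Of 5 E2s of ubiquitin-like proteins and their relatives, 1 was higher and 1 lower, near the 21.2% and 20.4% of all genes. Ube2m, which carries NEDD8 to cullins, gave raw signals of 2477 and 1911 with CPEB2 IgG against 4554 and 4640 with control IgG, a log2 fold change of -1.03 ± 0.33 (limma adjusted p = 0.0321). Ube2f, the other NEDD8 E2, had 2665 and 2724 against 1517 and 1496, 0.89 ± 0.01 (limma adjusted p = 0.0359). On these probes the 2 NEDD8 enzymes stood on opposite sides of the controls in both experiments, while a second Ube2f probe was at -0.17. Ube2l6 and Ube2z, the E2s of ISG15 and of an alternative ubiquitin pathway, were at 0.57 and 0.67 and were not called. The call of Ube2m was lost under median, spike-in and GC centring and when any array but CPEB2 IgG 1 was left out. Its value under GC centring was -0.40.

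Of the 10 other E2 genes tested, Ube2h, Ube2q1 and Ube2r2 were higher, with log2 fold changes of 0.91, 1.16 and 1.42, and Ube2o was the only one called lower, against 21.2% higher and 20.4% lower over all genes. A second Ube2h probe was at 0.03. Ube2l3, a partner of HECT ligases and of Parkin, gave raw signals of 13340 and 11112 with CPEB2 IgG against 15881 and 14287, -0.25 ± 0.12, and was not called. Of its other probes, 1 was at -0.15, and those at -1.15 and -1.02 had the groups apart, with 2405 and 2068 against 5550 and 4729 on the first of them, and the mean of its probes was -0.64 (limma adjusted p = 0.0812). Ube2k, which extends chains and binds huntingtin, was at -0.50 ± 0.11 on its brightest probe and was not called, but its other probes gave other answers, as described below. With normexp Ube2k was called lower, at -0.58 (limma adjusted p = 0.0235). With the mean of its probes it was called higher, at 1.23 (limma adjusted p = 0.0202). On the probe nearest the gene's median it was also called higher, at 1.58 (limma adjusted p = 0.0102).

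**Figure D2:**
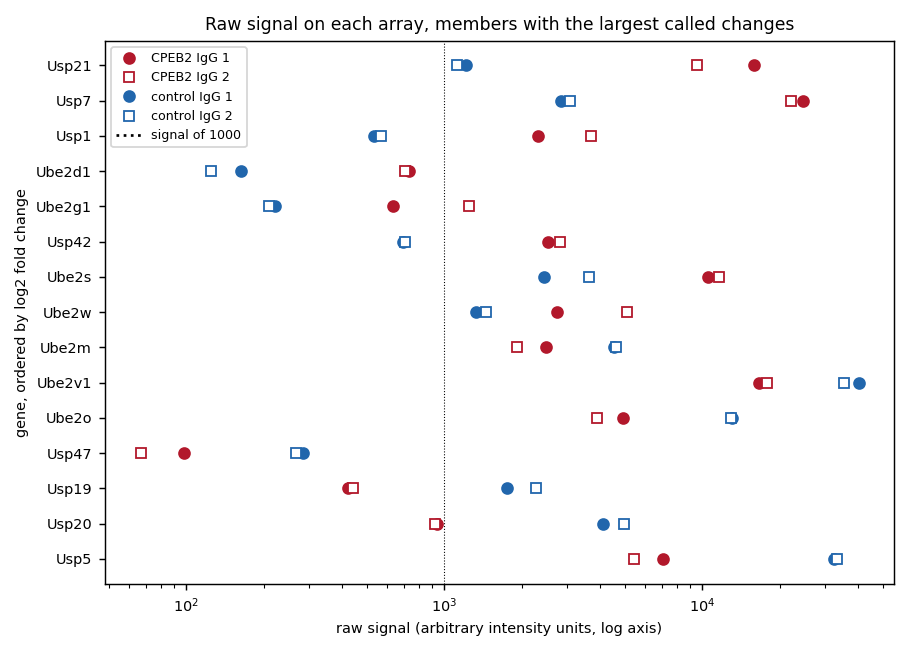
Raw signal on each of the 4 arrays (log axis, arbitrary intensity units) for 15 Ube2 and Usp genes, ordered by log2 fold change. In each family and direction these are the 4 genes with the largest called change. Fewer Ube2 genes than that were called lower, and all of those are drawn. Red is CPEB2 IgG and blue control IgG, with circles for experiment 1 and squares for experiment 2, and the dotted line is a signal of 1000. The genes were chosen by their called changes, so that red and blue were bound to lie apart, from 15858 and 9522 against 1214 and 1123 for Usp21 to 7023 and 5415 against 32486 and 33417 for Usp5.

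The deubiquitinases of chromatin, DNA repair and the cell cycle held the 3 largest enrichments of all 84 genes. Usp21, which removes ubiquitin from histone H2A, gave raw signals of 15858 and 9522 with CPEB2 IgG against 1214 and 1123 with control IgG, a log2 fold change of 3.45 ± 0.48 (10.9-fold; limma adjusted p = 0.00542). Usp7, which acts on Trp53 and its ligase Mdm2, had 24587 and 22099 against 2826 and 3073, 3.04 ± 0.24 (8.21-fold; limma adjusted p = 0.00542). In each of these genes the lower CPEB2 IgG array was several times above the higher control. A second Usp7 probe, 782 bases away, had 2886 and 3062 against 420 and 408 and a log2 fold change of 2.90. Usp1, which acts on PCNA and FANCD2 in DNA repair, had 2304 and 3695 against 534 and 568, 2.46 ± 0.38 (5.50-fold; limma adjusted p = 0.00562). Both probes of Usp7 and the single probes of Usp21 and Usp1 therefore separated the antibodies on every array.

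In all, 7 of the 13 tested genes of this group were higher, against 21.2% of all genes and 32.3% of genes whose probe held at most 40% GC. Usp22, the deubiquitinase of the SAGA coactivator, gave raw signals of 748 and 1301 with CPEB2 IgG against 320 and 374 with control IgG, a log2 fold change of 1.56 ± 0.36 (limma adjusted p = 0.0114). Its relatives Usp27x and Usp51 were at 1.20 and 0.01. The Usp27x value comes from a probe annotated to an Ensembl transcript, with 195 and 229 against 105 and 87.2, while the RefSeq probe of Usp27x was at -0.27 with 37.0 and 48.0 against 57.8 and 48.2, so the identity of the signal is uncertain. Usp3 and Usp28 were also higher, at 1.90 and 0.87, while a second Usp3 probe was at 0.61. Usp11 was the single gene of the group that was lower, at -1.62. Usp16, Usp37, Usp44 and Usp48 were not called, between -0.78 and 0.10, although Usp37, at -0.78, was called lower without the block (limma adjusted p = 0.0357). The call of Usp22 was lost without control IgG 1.

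Usp5 showed the reverse pattern. It takes apart free ubiquitin chains that are not attached to a substrate, and gave raw signals of 7023 and 5415 with CPEB2 IgG against 32486 and 33417 with control IgG, a log2 fold change of -2.36 ± 0.34 (5.15-fold lower; limma adjusted p = 0.00567). The 2 control arrays were close to each other and far above both CPEB2 IgG arrays. Its relative Usp13 had 481 and 398 against 367 and 428, 0.20 ± 0.39, and its groups overlapped on this probe, the brightest. The other Usp13 probe had 594 and 677 against 167 and 197, with a log2 fold change of 1.86 and the groups apart. Usp14, the deubiquitinase of the proteasome that is mutated in ataxia mice, had 9551 and 9453 against 7421 and 8535, 0.31 ± 0.20, and was not called.

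Among deubiquitinases of endosomes, membranes and synapses, 3 of 7 were higher and 1 was lower, against 21.2% and 20.4% of all genes. Usp2, which is linked to the circadian clock, gave raw signals of 7904 and 9999 with CPEB2 IgG against 2698 and 2677 with control IgG, a log2 fold change of 1.78 ± 0.21 (3.43-fold; limma adjusted p = 0.00742). Usp12 and Usp46 are close relatives that share a WD-repeat cofactor, and Usp46 is known for its action on AMPA receptors. Usp12 had 6805 and 12327 against 3866 and 3400, 1.39 ± 0.70 (limma adjusted p = 0.0274), and Usp46 had 2227 and 2476 against 1288 and 1277, 0.93 ± 0.07 (limma adjusted p = 0.0331). All 3 genes had CPEB2 IgG arrays above both controls, with the 2 arrays of Usp12 far apart. The calls of Usp12 and Usp46 were lost without either control array, that of Usp12 also under GC centring and that of Usp46 also without CPEB2 IgG 2 and under spike-in centring.

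Usp20 and Usp33 are relatives that act on beta-adrenergic receptor traffic. Usp20 gave raw signals of 938 and 922 with CPEB2 IgG against 4132 and 4967 with control IgG, a log2 fold change of -2.23 ± 0.25 (4.69-fold lower; limma adjusted p = 0.00571). Usp33 had 5559 and 8067 against 5219 and 5963, 0.32 ± 0.20, and was not called. The groups of Usp20 were far apart and those of Usp33 overlapped. Usp8, which acts on receptors in endosomes, had 2576 and 2375 against 4278 and 1670, a log2 fold change of -0.06 ± 0.83 in which the control arrays disagreed and the sign differed between experiments. Usp9x, a large deubiquitinase linked to brain development, had 279 and 250 against 257 and 237, 0.15 ± 0.07, and was not called.

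In the remaining groups, Usp19, which is anchored in the endoplasmic reticulum, gave raw signals of 424 and 442 with CPEB2 IgG against 1745 and 2271 with control IgG, a log2 fold change of -2.15 ± 0.27 (4.43-fold lower; limma adjusted p = 0.00602). Usp47, a relative of Usp7, had 98.4 and 66.5 against 284 and 266, -1.71 ± 0.37 (3.27-fold lower; limma adjusted p = 0.00941), so that these relatives lay on opposite sides. Usp42 had 2518 and 2810 against 691 and 704, 1.98 ± 0.05 (3.96-fold; limma adjusted p = 0.00612). The arrays of each antibody agreed closely for Usp42, while the control arrays of Usp19 lay further apart than its CPEB2 IgG arrays. Usp24, Usp25, Usp31, Usp38 and Usp45 were also higher, between 0.86 and 1.42, and 13 of the 21 genes of this mixed group were not called, against 11501 of all 19696 genes. A second Usp25 probe was at -0.01. Usp30, the deubiquitinase of the mitochondrial outer membrane, had 901 and 1194 against 1259 and 1360, -0.28 ± 0.17, and was not called.

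Of 4 Usp genes listed as without deubiquitinating activity, 3 were not called, against 11501 of all 19696 genes. Usp39, a splicing factor, gave raw signals of 185 and 182 with CPEB2 IgG against 195 and 265 with control IgG, a log2 fold change of -0.26 ± 0.37. Usp53 and Usp54 were at 0.41 and 0.75 and were not called. Usp50 was called lower at -1.58 with 9281 and 8263 against 29011 and 25420, but this probe matches another transcript annotation and lies 68914 bases from the second Usp50 probe, which was not above background on any array, so the identity of the signal is uncertain. Usp6nl, which is no deubiquitinase, had 216 and 350 against 105 and 72.1, 1.71 ± 0.84 (limma adjusted p = 0.0208), with the groups apart and the call lost without CPEB2 IgG 2.

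Of the 34 genes named by the rule, 22 were called, and 12 of these were called in every other limma setting in which they were tested (Ube2d1, Ube2s, Ube2o, Usp21, Usp7, Usp1, Usp42, Usp2, Usp5, Usp20, Usp19 and Usp47). Ube2d1 and Usp47 were not among the genes tested in the setting that required a raw signal above 1000. Usp47 kept its call at -1.07 under GC centring, against -1.71 in the main fit. The other 10 all lost their call with no filter on dim probes. Leaving out 1 array, without the block, gave 31 higher and 11 lower calls among all 84 genes without CPEB2 IgG 1, 19 and 10 without CPEB2 IgG 2, 13 and 7 without control IgG 1, and 16 and 7 without control IgG 2. The higher calls were 36.9%, 22.6%, 15.5% and 19.0% of the 84 genes in that order, against 21.5%, 16.6%, 14.7% and 14.9% of all genes, so that without control IgG 1 the share was close to that of all genes. The labels do not say which mice the lysates came from, so p-values do not measure a spread between mice. In the main fit they set the change against the disagreement of the 2 experiments, with each gene's variance drawn toward that of all genes.

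Genes with several probes did not always give 1 value along their length, and Ube2k showed this most. Its 3 probes are listed from the 5′ to the 3′ side of the gene by the last 30 bases of each, because the 3 stretches of 1 transcript annotation gave log2 fold changes of opposite sign. The first probe spans an exon junction between mm9 chr5:65983194-65985697, and no letter is marked by capitals.
Ube2k, most 5′ probe: aatcctgaaatgttcaagcagacagctcga
Ube2k, middle probe (mm9 chr5:65986868-65986897, plus strand): tcttcactttgtaagtagtaatgtaaaaag
Ube2k, most 3′ probe (mm9 chr5:65989346-65989375, plus strand): ggaagttacattttcatctttcagtacctg
The most 5′ probe gave raw signals of 6305 and 6876 with CPEB2 IgG against 9977 and 9376 with control IgG, a log2 fold change of -0.50. The middle probe had 9098 and 11900 against 3733 and 3503, and 1.58. The most 3′ probe, 3678 bases from the first, had 1697 and 2813 against 377 and 368, and 2.61. The probes were ordered in the same way in both experiments, and the first lay below both controls while the other probes lay above them. The brightest probe, used for the test, was the most 5′ one.

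**Figure D3:**
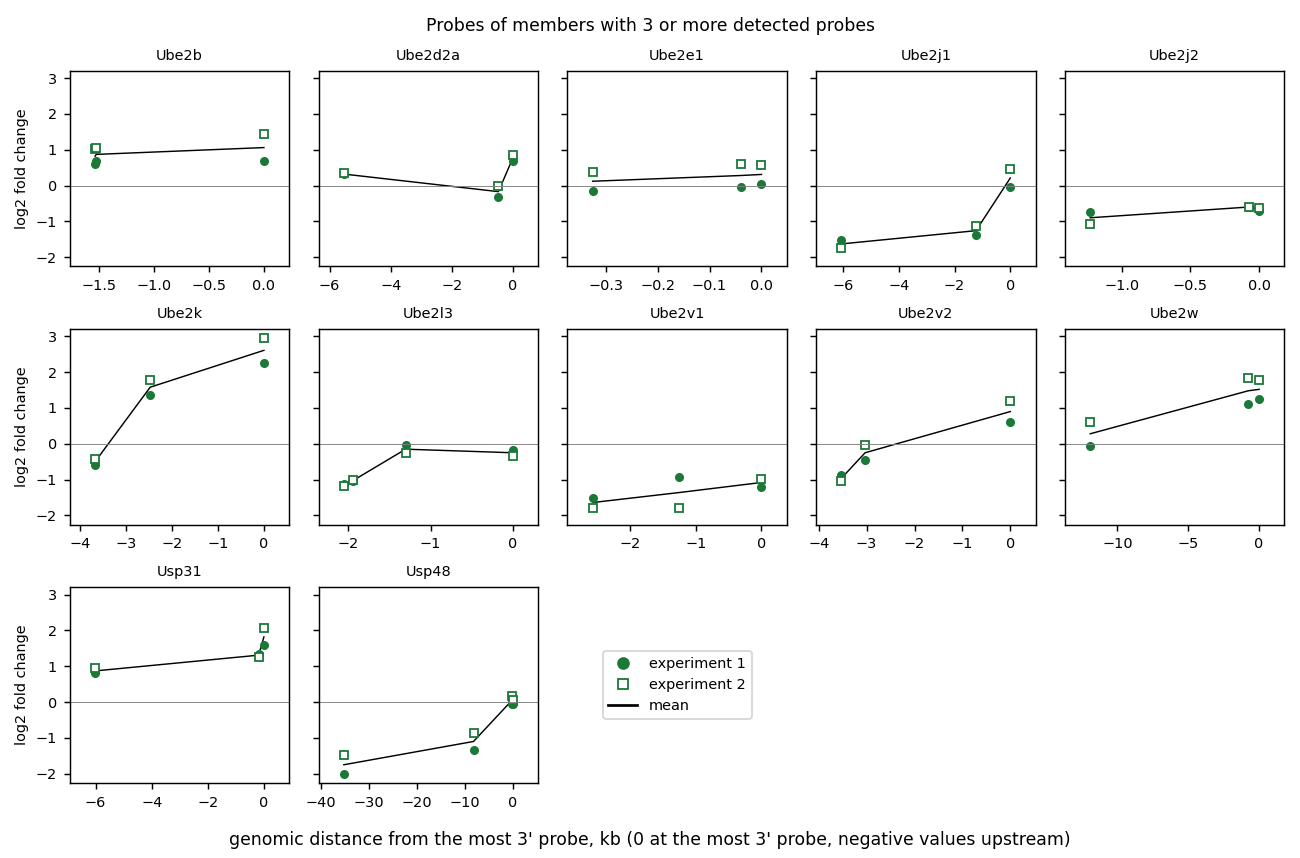
Log2 fold change at each probe of 12 Ube2 and Usp genes with 3 or more probes well above background on at least 2 arrays, against genomic distance in kb from the most 3′ probe, which is at 0 with the 5′ side to the left. Circles are experiment 1, squares experiment 2 and the line their mean. In 11 of the 12 genes the most 5′ probe had the lowest mean, and Ube2k rises from -0.50 to 2.61 across its probes.

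This order was noticed after the values were seen and was then counted over all genes with at least 2 probes on 1 strand. Among 38 such Ube2 and Usp genes, the most 3′ probe had the higher log2 fold change in 32 (84.2%), against 71.9% of 5382 genes. It was higher in both experiments in 31 of the 38 (81.6%), against 59.7% of all such genes, and lower in both in 3. The median difference between the most 3′ and the most 5′ probe was 0.82 on the log2 scale (0.54 and 0.87 in the 2 experiments), against 0.48 over all genes. It was higher at the 3′ side in 19 of 21 Ube2 genes (median difference 0.56) and 13 of 17 Usp genes (0.86).

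In 13 of the 38 genes the most 3′ probe was above 0 and the most 5′ probe below 0, and in 2 the reverse was true (34.2% and 5.26%), against 28.6% and 6.78% of all such genes. Ube2a was at -1.01 on its 5′ probe and at 0.78 on its 3′ probe, Ube2v2 went from -0.96 to 0.90, Ube2j1 from -1.63 to 0.21 and Usp54 from -1.23 to 0.75. Usp48 had 4 probes at -1.75, -1.10, 0.06 and 0.01 from its 5′ to its 3′ side. Usp13 rose from 0.20 to 1.86. The mean of the probes of Ube2a was -0.11, and that of Ube2k 1.23, so the direction of these genes depended on the probe.

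The clearest exceptions were Usp20, at 0.01 on a dim 5′ probe with raw signals of 40.8 and 22.4 against 33.1 and 29.3 and at -2.23 on its 3′ probe, and Usp35, which went from -0.46 to -1.57 on a 3′ probe that was well above background on only 2 arrays, with raw signals of 13.7 and 11.7 against 44.7 and 33.9. The 3′ probe was the poorer in GC in 23 of the 38 genes, equal in 6 and richer in 9. Among the 15 where it was not poorer, the 3′ probe was higher in 11 (73.3%), against 61.1% of all such genes, with a median difference of 0.53 against 0.21. By family these were 7 of 8 Ube2 genes (87.5%, median difference 0.80) and 4 of 7 Usp genes (57.1%, 0.12). After centring within GC bins, 31 of the 38 genes had the higher value at the 3′ side, against 3393 of all 5382 such genes, with median differences of 0.52 in these genes and 0.29 over all genes. The part of probe composition and of separate transcripts in this order was not tested.

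**Figure D4:**
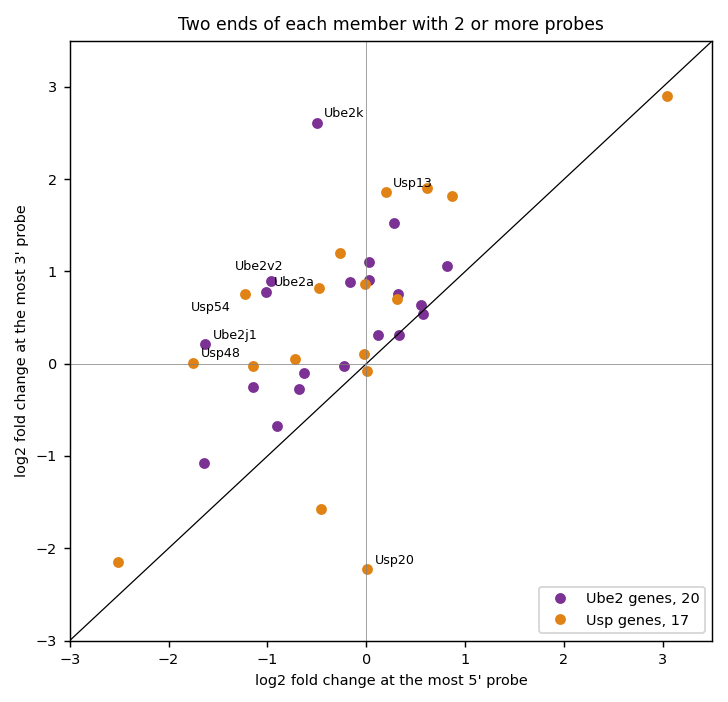
Log2 fold change at the most 3′ probe against that at the most 5′ probe for 20 Ube2 genes (purple) and 17 Usp genes (orange) with 2 or more probes, with the line of equal values. Of the 37 points, 31 lie above the line, and Ube2k (-0.50 and 2.61) is farthest above it and Usp20 (0.01 and -2.23) farthest below.

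CPEB proteins bind the CPE, and the letters TTTTAT or TTTTAAT were searched in the 60-base probes, in the direction of the transcript only, where any overlap counted once. Of 138 probes of these genes that were above background on at least 2 arrays, 8 held a match (5.80%), 5 of 67 Ube2 probes (7.46%) and 3 of 71 Usp probes (4.23%), against 5.24% of 26707 named probes. Of these, 7 stretches are shown because they are where the letters of a CPE can be read directly from the array, and capitals mark the match.
Ube2d3 (probe across mm9 chr3:135123030-135125958, plus strand): tttctaaagttcTTTTATccatttgttcac
Ube2e1 (probe at mm9 chr14:19115260-19115318, minus strand): ttggtttagactTTTTATgtctgcatttgt
Ube2f (mm9 chr1:93182435-93182464, plus strand): gtagatcttactgaaatgcgtaTTTTATtt
Ube2w (mm9 chr1:16572045-16572074, minus strand): ccagataattccTTTTATgtgcgaacatgt
Usp16 (mm9 chr16:87483501-87483530, plus strand): atacacctatggcTTTTATactggctatta
Usp28 (mm9 chr9:48850566-48850595, plus strand): caactatgcaggTTTTATaaatgtgcaata
Usp44 (mm9 chr10:93320736-93320765, plus strand): gtgcttcattgtTTTTATtctggaattatg
All 8 matches were TTTTAT. Log2 fold changes of these probes ran from -0.44 for Usp44 to 0.89 for Ube2f, with Usp28 at 0.87, Ube2e1 at 0.31, Ube2w at 0.28, Ube2d3 at 0.03 and Usp16 at -0.02. Their median was 0.15, against 0.11 for the probes of these genes without the letters, while over all named probes the medians were 0.53 and -0.17. The 6 probes whose last bases are listed above held no such letters. A probe covers 60 bases of a transcript, so the absence of a match says nothing of the rest of it.

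The other genes of the pathway were read from lists of 80 tested genes. Of these, 25 were higher and 24 lower in the same limma fit, against 21.2% and 20.4% of all genes. Genes of ubiquitin itself were among the depleted. Ubb gave raw signals of 20089 and 12954 with CPEB2 IgG against 221787 and 235308 with control IgG, a log2 fold change of -3.77 ± 0.55 (limma adjusted p = 0.00542). Rps27a, which encodes ubiquitin fused to a ribosomal protein, was also lower, at -1.38. Both genes had CPEB2 IgG arrays far below the controls, whereas Sumo2 was higher, at 1.89, and Nedd8 was lower at -2.06. In all, 2 of 10 genes of ubiquitin and its relatives were higher and 6 lower, with a median of -1.42.

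Of 8 E1 enzyme genes, 4 were lower and 1 higher, against 20.4% and 21.2% of all genes. Uba1, the main ubiquitin E1, gave raw signals of 5834 and 4789 against 29838 and 32265, a log2 fold change of -2.50 ± 0.32 (limma adjusted p = 0.00543), while the second ubiquitin E1, Uba6, had 420 and 311 against 126 and 116, 1.63 ± 0.26. Ufc1, the E2 of UFM1, was at -1.66 and was the only call among 5 E2 genes named otherwise than Ube2, although Aktip, at -0.67, was also called lower without the block (limma adjusted p = 0.0483). HECT ligases, which take ubiquitin from an E2 before passing it on, had the highest share of higher genes among the 6 lists. In this list 10 of 20 were higher and 2 lower, against 21.2% and 20.4% of all genes, with a median of 0.75. Herc4 had 10509 and 9132 against 1103 and 1083, 3.22 ± 0.17, Hace1 was at 2.76, and Ube3a, the Angelman syndrome ligase, was at 0.79 with a limma adjusted p of 0.0498. The second lower call, Herc2, rested on arrays that differed widely within each antibody, with 36770 and 7073 against 134309 and 11186, and was lost without the block (limma adjusted p = 0.528).

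Among the cullins and their RING partners, 1 of 10 was higher (Cul4b, 2.52) and 4 were lower (Cul1, Cul3, Cul7 and Rbx1), with a median of -0.46. Deubiquitinases of other families had 11 of 27 higher and 7 lower, with a median of 0.40. Their extremes were Otud1 at 2.58 and Mysm1 at 2.45, against the neuronal hydrolase Uchl1, with raw signals of 1098 and 1566 against 13624 and 19073 and a log2 fold change of -3.57 ± 0.02. The proteasomal deubiquitinases Psmd14 and Uchl5 were lower, at -2.10 and -1.58, while Usp14 of the same complex was not called. Over all genes, 21.2% were higher and 20.4% lower, and no test of any list was made.

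**Figure D5:**
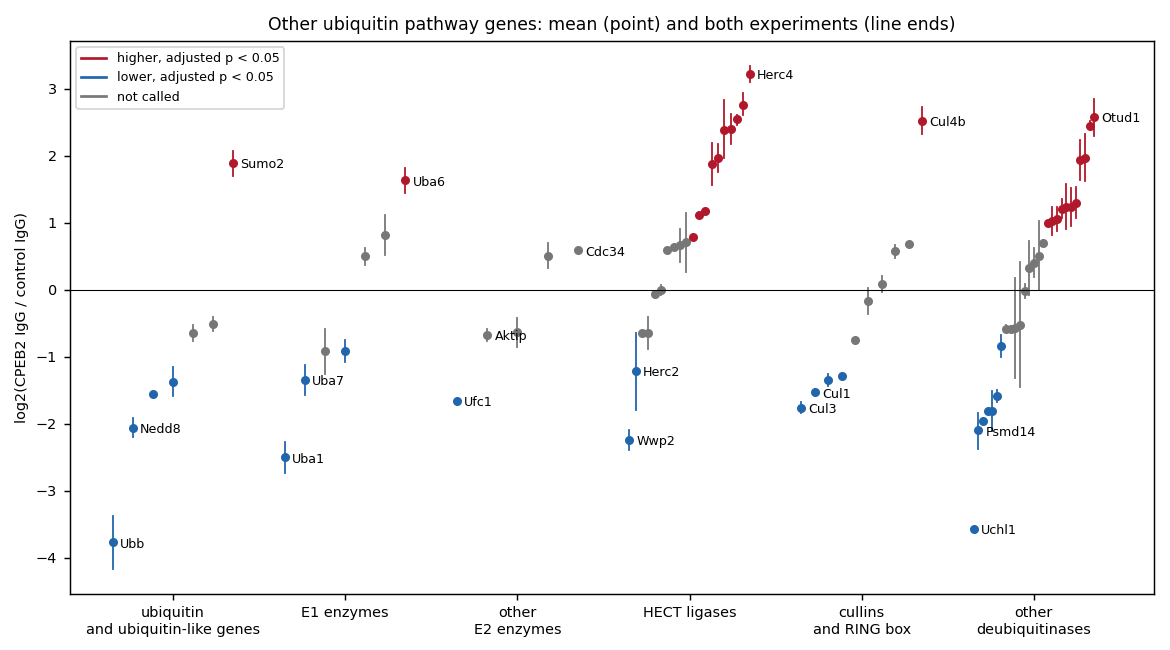
Log2 ratio of CPEB2 IgG to control IgG for 76 of the 80 other genes of the ubiquitin pathway in 6 lists, each ordered by value. Points are means of 2 experiments, line ends the experiments and colors the limma call. Ubb lies at -3.77, and the HECT ligase genes reach 3.22 with Herc4.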

How the data were processed

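RNA recovered with CPEB2 IgG (2 arrays) or control IgG (2 arrays) was labeled with Cy3 after amplification with a low-input kit and hybridized to Agilent SurePrint G3 Mouse GE 8x60K arrays. For each array the authors deposited the output of the scanner software (Agilent Feature Extraction 10.5.1.1), in which spots have an intensity that is corrected for background but not normalized between arrays. Probe coordinates are those of the files, on mm9, the build in the submitters' processing notes. The probe strand was that of RefSeq (GRCm38.p6) in 73 of 73 genes that could be compared. The pairing comes from the methods, which divide each lysate between the antibodies, and from the replicate numbers, and the deviations of paired arrays had a correlation of 0.203.

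Control spots and marked spots were left out, 66 probes with a missing value were dropped and 55615 of 55681 probes were kept. Repeated spots were averaged, and each array's 75th percentile was subtracted from its log2 intensities. The brightest probe stood for each gene, among probes well above background on at least 2 arrays. The test was limma 3.58.1 (R 4.3.3) with a block for the experiment, which leaves 1 residual degree of freedom and 3.668 prior degrees of freedom. With 2 arrays against 2, an exact permutation test that ignores the pairing cannot go below p = 0.333 (two-sided). Keeping the pairs leaves fewer arrangements still. For this reason limma was used, and the number of arrays limits the precision. SDs are over the 2 experiments. Python 3.11.15 with numpy 2.4.6, pandas 2.3.3 and matplotlib 3.10.9 did the rest.

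Genes and lists were chosen with earlier results of these data known. The rule for named genes took the 4 Ube2 and 4 Usp genes with the largest called change in each direction (3 lower Ube2 genes were called) and a list by role. Other genes were named as members of a count, as relatives, as pathway list members or for their probes, after their values were seen. Alternatives were other scalings (quantile, median, none, spike-in probes, another percentile), normexp with an offset of 50, centring in 17 GC bins of at least 200 probes, other filters, probe rules and thresholds, no block, an intensity trend, and single arrays or experiments left out. Alternatives for the order of probes were chosen after seeing the data. A few genes are not reported here by name and are not drawn, but stay in the counts.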

Additional observations from a re-analysis of the deposited data

How the results depend on the processing

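Over the alternatives run, the median log2 fold change of the Ube2 genes stayed between 0.31 and 0.68 and that of the Usp genes between 0.04 and 0.38, and 12 of 22 called named genes kept their call in each limma setting that tested them (Ube2d1 and Usp47 were not tested where a raw signal above 1000 was required). Values that moved beyond the limits set were these. Median centring raised the medians to 0.68 (Ube2) and 0.38 (Usp), shifted all genes by 0.23 and made 61.2% of calls over all genes higher, against 50.9%; quantile normalization shifted them by 0.13 and the percentile over probes detected on all arrays by -0.11. Spike-in centring gave 2624 lower calls over all genes and 1 lower Ube2 gene. Normexp gave 16 higher and 5 lower Ube2 genes, and GC centring 7 lower Ube2 genes. With no filter on dim probes, 2265 genes were higher and 1837 lower, with 2 higher and 1 lower Ube2 genes and 9 higher Usp genes. A raw signal above 1000 gave 2642 lower genes and a Usp median of 0.37. A fold change above 2 left 16 genes past the thresholds, against 25. Without the replicate block, 27 of the 84 genes were higher and 11 lower (10 and 4 Ube2, 17 and 7 Usp), with 4260 and 3999 over all genes, so the pairing moved none of these counts by over 1.5 times. Among the pathway lists, lower calls went from 2 to 1 for the HECT ligases and from 1 to 2 for the other E2 enzymes without the block. Those of the cullins went from 4 to 5, and higher calls of the other deubiquitinases from 11 to 12. Of the E1 enzymes, Nae1 lost its lower call (limma adjusted p = 0.0524) and Sae1 gained one (limma adjusted p = 0.0426). With 1 array left out and no block, the lone array being assumed to vary like the others, calls ranged from 4 to 14 (Ube2 higher), 1 to 3 (Ube2 lower), 9 to 17 (Usp higher), 6 to 8 (Usp lower), 2887 to 4227 (all higher) and 2390 to 4251 (all lower). With 1 experiment each, the medians were 0.31 to 0.60 (Ube2) and 0.17 to 0.37 (Usp), the Usp minus Ube2 difference was -0.43 to 0.06, 19 to 28 genes passed the thresholds, and the most 3′ probe was higher in 31 to 35 of 38. Signs turned for Ube2c (0.17 quantile, 0.20 median, 0.06 spike-in, 0.54 GC centring, and -0.30 to 0.24 with arrays left out, 0.0029 without control IgG 1, 0.21 in experiment 1), Ube2d2a (0.06 median centring, 0.31 mean of probes, 0.32 probe nearest the median), Usp8 (0.17 median, 0.03 spike-in, -0.71 to 0.59 with arrays left out, 0.53 in experiment 2), Ube2a (-0.11 mean of probes), Ube2k (1.23 mean, 1.58 nearest) and Usp39 (-0.52 to 0.01 with experiments left out). The cause of these changes was not tested. Low signal limits the 9 genes not tested and dim tested genes such as Usp24, Usp37 and Usp44.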
